A study of Mus musculus with 6 samples.

Results

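The genes described here mark GABAergic interneurons, the inhibitory neurons of the forebrain. They are 10 gene symbols, *Gad1*, *Gad2*, *Slc32a1*, *Sst*, *Npy*, *Vip*, *Calb2*, *Dlx1*, *Dlx2* and *Lhx6*, chosen by name among the 50508 symbols listed, and each is listed in the files of all 6 libraries. RNA came from primary neuronal cultures of postnatal day 0 C57Bl/6J mouse pups, 3 libraries transduced with a control guide against LacZ (sgLacZ, called Ctrl-dCas9A) and 3 with a guide against the *Kcna1* promoter (sgKcna1, called Kcna1-dCas9A). Both groups carried lentivirus that expresses nuclease-dead Cas9 fused to the activator VP160, so that they differ in the guide. In the study's methods this fusion is driven by the Ef1alpha promoter, which is active in many cell types and not in neurons alone. The labels name hippocampus as the tissue, whereas the study's methods name cortical neurons. The methods state in general that experiments were repeated independently but do not tie this to the 6 libraries, and the labels name no separate cultures, so that the p-values measure the spread between these libraries, which may be technical.

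GABAergic interneurons make GABA from glutamate with the enzymes encoded by *Gad1* and *Gad2* and load it into synaptic vesicles with the transporter encoded by *Slc32a1*. They arise in the ganglionic eminences of the embryonic ventral forebrain, where *Dlx1* and *Dlx2* act as homeodomain transcription factors of the whole lineage and *Lhx6* acts in cells of the medial eminence, and migrate from there into cortex and hippocampus. Subclasses are told apart by the neuropeptides somatostatin (*Sst*), neuropeptide Y (*Npy*) and vasoactive intestinal peptide (*Vip*) and by calcium-binding proteins such as calretinin (*Calb2*).

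The deposited values are whole numbers that sum to between 999047 and 999717 per library and were read as CPM-like values rounded by the authors, so that the depth is unknown and a low value is known only to within 0.5. *Kcna1*, the targeted gene, stood at 16 in each control library and reached 68, 47 and 65 with its own guide (log2 fold change 1.83, adjusted p = 0.034 from limma), the order that the labels give. One gene, Gm42418, held between 15.3% and 20.2% of each library in both groups. Between groups, genes were tested with limma on log2(value + 1) over the 19504 genes above 0 in at least 1 library, with Benjamini-Hochberg adjustment over all of them and 226 genes past an adjusted p of 0.05. Fold changes are Kcna1-dCas9A minus Ctrl-dCas9A on this scale, which understates differences of low values. Values are given for replicates 1, 2 and 3 in that order, the Ctrl-dCas9A libraries (the controls) first.

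Together the 10 genes made up between 0.0309% and 0.0372% of a library. Their values summed to 355, 336 and 314 in the controls and to 309, 310 and 372 with the *Kcna1* guide, and these ranges overlapped. *Sst* was the highest of the 10 in every library, with a mean over the 6 libraries of 130, and held 37.0% ± 0.92 (SD, n = 3) of the summed values in the controls but 41.0% ± 2.1 (SD, n = 3) in Kcna1-dCas9A. *Dlx1* (mean 52.7), *Calb2* (42.0), *Slc32a1* (32.0), *Gad1* (21.3), *Gad2* (17.2), *Npy* (16.3), *Lhx6* (11.2) and *Dlx2* (8.67) followed, and *Vip* was last with a mean of 1.33. Within groups the place of *Npy* differed, as its control mean of 12 lay below those of *Lhx6* (12.7) and *Dlx2* (12.3) and its Kcna1-dCas9A mean of 20.7 above those of *Gad1* and *Gad2* (16.7 each). The libraries overlapped between each pair of neighbours in this order except *Sst* and *Dlx1*, and *Dlx2* and *Vip*. The 3′ libraries read mainly the end of each transcript, and no division by gene length was made here. Whether the authors divided by length is not stated, and the order between genes depends on it.

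Of the 10 genes, 0 passed the adjusted p of 0.05 with limma, where 1.16% of all genes tested did (0.349% higher, 0.81% lower) and 2.01% of the 9751 genes with a mean value of 5 or more, which include 9 of the 10. At an unadjusted p under 0.05 the count was 4 of 10 (1 higher, 3 lower), against 23.2% of all genes and 37.7% of those 9751. The same 4 genes were those whose 3 libraries of one group did not overlap the 3 of the other, against 22.2% of all genes tested (8.98% higher, 13.3% lower) and 37.5% of those 9751. *Gad1*, *Slc32a1* and *Dlx2* had lower values and *Npy* higher values in Kcna1-dCas9A. The share of members thus lay near that of other genes of like level. The median log2 fold change was -0.02 over the 10 genes, -0.02 over all genes tested and -0.07 over those 9751. For each of the 4 genes a two-sided exact permutation test gave p = 0.1, which is the lowest value possible with groups of 3. In these bulk cultures, fewer cells of a type and less RNA per cell cannot be told apart.

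**Figure D1:**
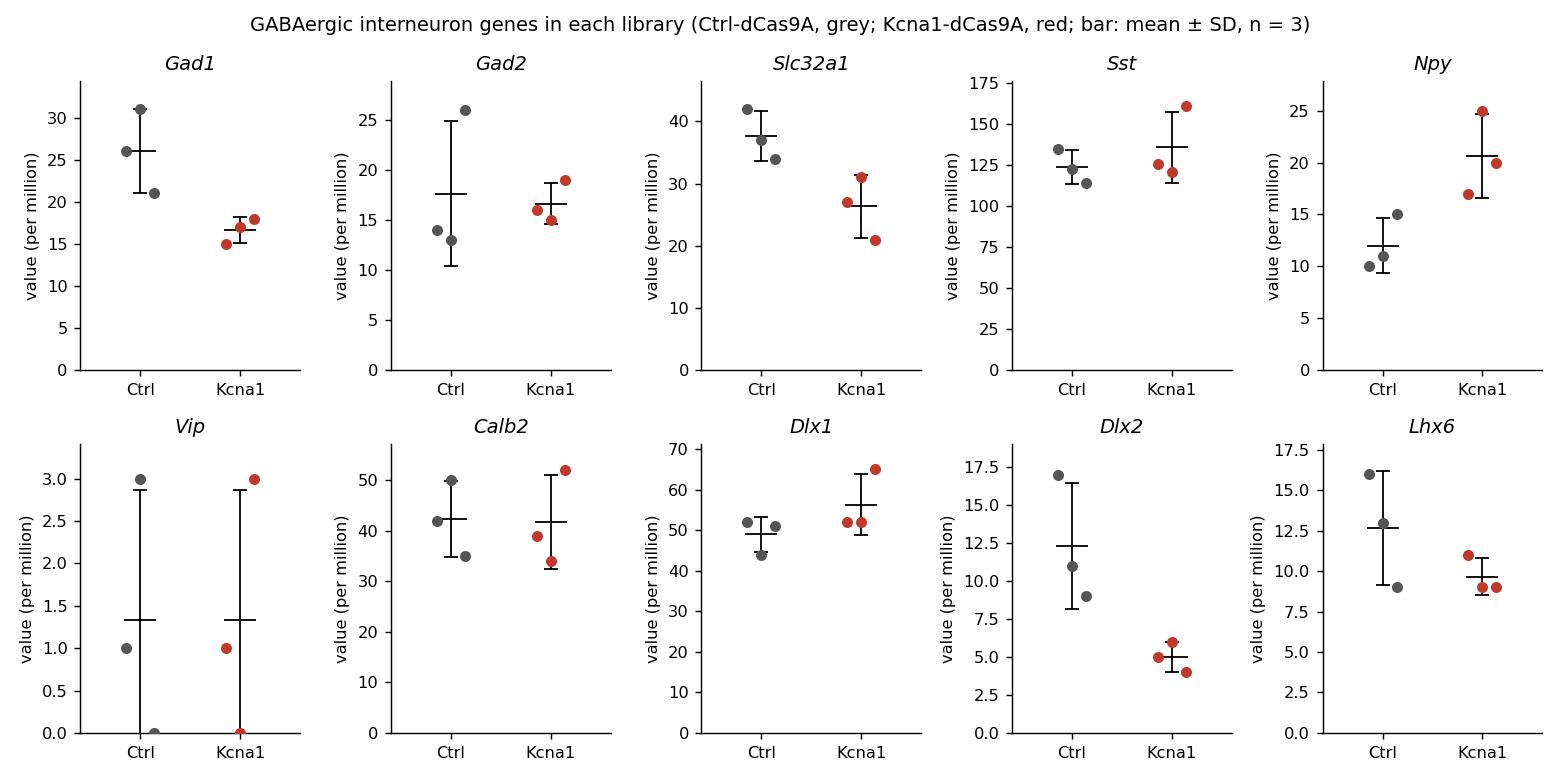
Each panel plots 1 gene, with the deposited value (rounded, CPM-like) on a linear axis from 0 and the group on the other axis; points are the 3 libraries of a group and bars the mean ± SD (n = 3), cut off at 0 for *Vip*. Every Kcna1-dCas9A point lies below every Ctrl-dCas9A point for *Gad1*, *Slc32a1* and *Dlx2* and above for *Npy*, and the groups overlap in the other 6 panels.

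Of the 3 genes for making and packaging GABA, *Gad1* and *Slc32a1* had groups that did not overlap and *Gad2* had groups that did, and no difference between the genes was tested. *Gad1*, which encodes the larger of the glutamate decarboxylases, had values of 26, 31 and 21 in the controls against 15, 17 and 18. All 3 Kcna1-dCas9A values lay below the lowest control value, at a fitted log2 fold change of -0.60 (standard error 0.18, 95% interval -1.01 to -0.18, adjusted p = 0.099 from limma). *Slc32a1*, the vesicular GABA transporter, was listed at 42, 37 and 34 against 27, 31 and 21. Here too the groups did not overlap, and the log2 fold change was -0.51 (standard error 0.17, 95% interval -0.92 to -0.11, adjusted p = 0.13 from limma). *Gad2*, the other decarboxylase, was listed at 14, 13 and 26 against 16, 15 and 19. Its groups overlapped, since the Ctrl-dCas9A libraries held both its lowest and its highest value. The log2 fold change of *Gad2* was -0.02 with a 95% interval from -0.66 to 0.62, so that a difference as large as that of *Gad1* is inside the interval. Without Ctrl-dCas9A replicate 3, which held the value of 26, it was 0.28, and it also turned positive under both rescalings by factors.

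Summed over the 3 genes of GABA synthesis and loading, the values were 82, 81 and 81 against 58, 63 and 58, a ratio of group means of 0.734. The control sums were even although their parts were not, as *Gad2* was highest in the replicate where *Gad1* and *Slc32a1* were lowest. The ratio of *Gad1* to *Gad2* was 1.86, 2.38 and 0.808 in the controls against 0.938, 1.13 and 0.947, and the groups overlapped. The ratio of *Gad1* to *Slc32a1* overlapped as well, at 0.692 ± 0.13 (SD, n = 3) and 0.654 ± 0.18 (SD, n = 3). The sum was put together from genes chosen with their values known and is a description without a test.

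**Figure D2:**
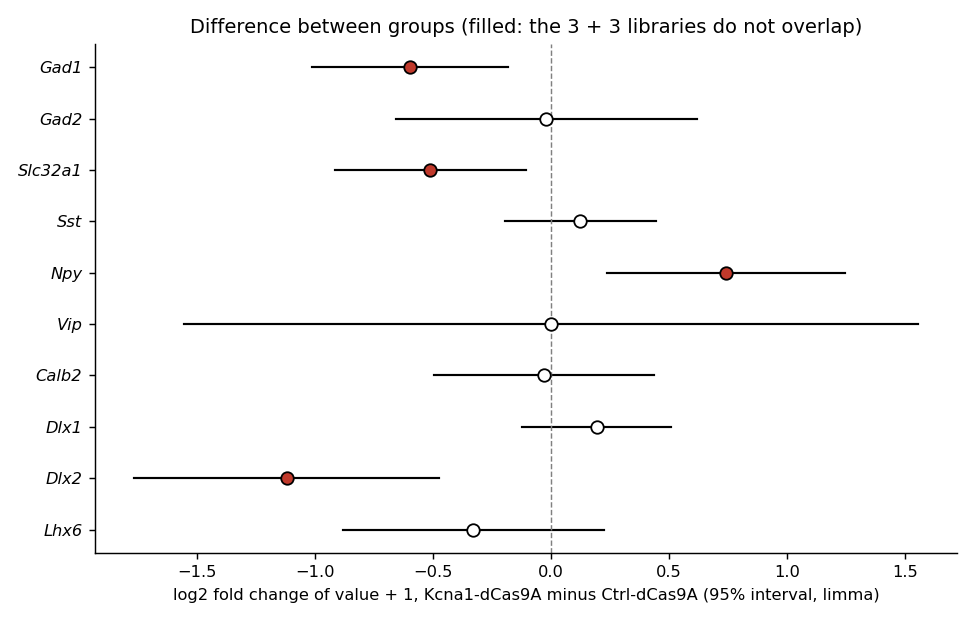
The 10 genes are on the vertical axis and the log2 fold change of value + 1, Kcna1-dCas9A minus Ctrl-dCas9A, on the horizontal axis; lines are 95% intervals from limma and filled points mark genes whose 3 libraries a group did not overlap. The 4 filled points lie at -0.60 (*Gad1*), -0.51 (*Slc32a1*), 0.74 (*Npy*) and -1.12 (*Dlx2*), and their unadjusted intervals do not reach 0.

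*Npy*, a neuropeptide of several interneuron subclasses, had values of 10, 11 and 15 in the controls against 17, 25 and 20. The groups did not overlap, the control mean being 12 ± 2.6 (SD, n = 3) and the other 20.7 ± 4.0 (SD, n = 3), and limma gave a log2 fold change of 0.74 (standard error 0.21, 95% interval 0.23 to 1.24, adjusted p = 0.095). *Sst* was listed at 135, 123 and 114 against 126, 121 and 161, so that the groups overlapped and the 3rd Kcna1-dCas9A library stood highest. Its log2 fold change was 0.12, with a 95% interval from -0.19 to 0.44 that leaves out the value fitted for *Npy*. The ratio of *Npy* to *Sst* was 0.0741, 0.0894 and 0.132 against 0.135, 0.207 and 0.124. These ratios overlapped by the 3rd library of each group, so that a difference between the 2 genes was not separated from the spread between libraries. *Vip* was listed at 1, 3 and 0 against 1, 0 and 3, too low for a difference to be read in either direction.

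The promoters of these genes can be set beside their levels. *Sst* is a textbook target of the cAMP response element, the site of the activity-regulated factor CREB, whose full form is TGACGTCA and whose shorter form is TGACG, both read on either strand. In RefSeq promoters of GRCm38.p6, which reach from 250 bases before to 50 bases after a start site, 9 of the 10 genes have an entry. The full form was found in 1.79% of 32851 promoters and among the 10 genes in *Sst* alone, and the shorter form, which the full form contains, in 20.8% of promoters and in *Sst*, *Gad2*, *Dlx2* and *Vip*. The homeodomain core TAATTA was found in 5.29% of promoters and in 0 of these genes. The 30 bases around each match are shown 5′ to 3′ on the strand of the gene, with the match in capitals, because they set the peptide gene with the full element beside the 3 genes with the shorter one.
Sst: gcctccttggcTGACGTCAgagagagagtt
Gad2: tccatttcccttcCGTCActctctcatctc
Dlx2: ggctgttgctaggTGACGttgcccgcggtc
Vip: gggatcactactgTGACGtctttcggggag

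The *Sst* stretch lies on the minus strand at chr16:23890874-23890903 and its match begins 48 bases before the start site of the promoter entry. The *Gad2* stretch lies at chr2:22622281-22622310 on the plus strand, where the match is on the opposite strand. For *Sst* and *Gad2* the start site of the promoter entry lies inside the annotated gene (23889573 to 23891342 on chromosome 16 and 22621015 to 22693877 on chromosome 2), so that both stretches do too. The *Dlx2* stretch lies at chr2:71546796-71546825 on the minus strand and the *Vip* stretch at chr10:5639126-5639155 on the plus strand. Of the genes with a match, *Sst* and *Gad2* overlapped between groups, *Dlx2* did not, and *Vip* was near 0. A match in these letters is a description and not a measured binding site.

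*Calb2*, which encodes calretinin and is also used by Cajal-Retzius cells, had values of 42, 50 and 35 in the controls against 39, 34 and 52. The groups overlapped almost wholly, and the log2 fold change of -0.03 had a 95% interval from -0.50 to 0.44. Of the 6 Cajal-Retzius cell markers measured, 0 passed the threshold in limma, 0 had an unadjusted p under 0.05 and 0 had groups that did not overlap, beside 1.16%, 23.2% and 22.2% of all genes tested. Their most abundant members were *Reln* (34, 40 and 28 against 43, 34 and 27), *Ndnf* (21, 21 and 19 against 16, 17 and 19) and *Lhx1* (1, 6 and 3 against 3, 5 and 6). *Reln* and *Ndnf* are also in the list of interneuron subclass genes, and the rest had means between 0.67 and 4. The counts of 0 therefore say little about Cajal-Retzius cells. *Trp73*, a defining gene of these cells, was listed between 1 and 3 in all libraries.

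Of the members' log2 fold changes, that of *Dlx2* was the farthest from 0. *Dlx1* and *Dlx2* sit tail to tail on chromosome 2 of GRCm38.p6, *Dlx1* from 71528113 to 71533981 on the plus strand and *Dlx2* from 71543408 to 71546754 on the minus strand, with 9426 bases between them. *Dlx2* had values of 17, 11 and 9 in the controls against 5, 6 and 4. Every Kcna1-dCas9A value lay below every control value, although Ctrl-dCas9A replicate 1 stood well above the other controls. The log2 fold change was -1.12 (standard error 0.27, 95% interval -1.77 to -0.47, adjusted p = 0.066 from limma), and moving every library by the 0.5 that rounding can hide placed it between -1.31 and -0.94. *Dlx1* was listed at 52, 44 and 51 against 52, 52 and 65. Its groups overlapped, with a log2 fold change of 0.19 and a 95% interval from -0.12 to 0.51 that does not meet the interval of *Dlx2*. Leaving out single libraries placed *Dlx1* between 0.09 (without Kcna1-dCas9A replicate 3) and 0.25, with 0.12 without Ctrl-dCas9A replicate 2.

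The ratio of *Dlx2* to *Dlx1* within a library was 0.327, 0.250 and 0.176 in the controls against 0.0962, 0.115 and 0.0615. The groups did not overlap, and because library totals cancel in such a ratio, it does not depend on the scaling. *Dlx1as*, an antisense RNA that shares 3344 bases with *Dlx1* and was named after its values were seen, was listed at 4, 5 and 6 against 9, 9 and 12. All 3 of its Kcna1-dCas9A values lay above the controls, at a log2 fold change of 0.88 (standard error 0.22, adjusted p = 0.073 from limma). *Dlx1as* relative to *Dlx1* was 0.103 ± 0.022 (SD, n = 3) in the controls against 0.177 ± 0.0067 (SD, n = 3), again without overlap. The reads were stranded according to the study's methods, but the counting is not stated to have used the strand, so that reads of *Dlx1* and *Dlx1as* may not have been told apart.

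**Figure D3:**
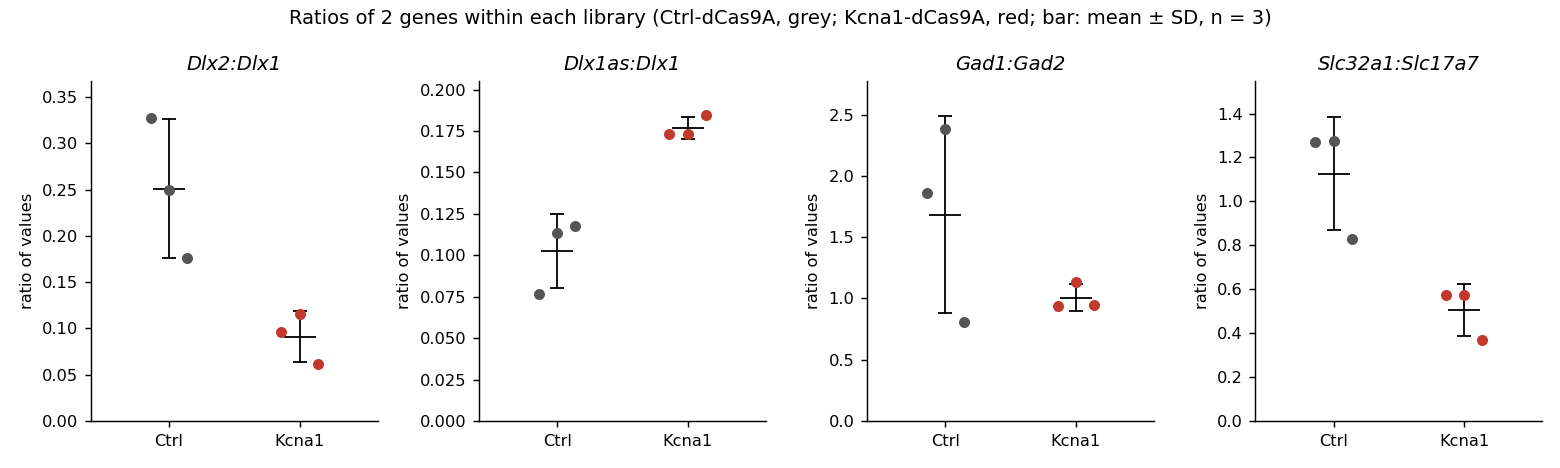
Each panel plots the ratio of the values of 2 genes within a library on a linear axis from 0, by group; points are libraries and bars the mean ± SD (n = 3). The ratios *Dlx2*:*Dlx1* and *Slc32a1*:*Slc17a7* are lower and *Dlx1as*:*Dlx1* is higher in all 3 Kcna1-dCas9A libraries, while *Gad1*:*Gad2* overlaps because of the control value of 0.808.

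Of the other members, *Lhx6*, the factor of medial eminence interneurons, had values of 16, 13 and 9 in the controls against 11, 9 and 9. The groups overlapped between 9 and 11, and the log2 fold change was -0.33 with a 95% interval from -0.88 to 0.22. It was -0.16 without Ctrl-dCas9A replicate 1 and -0.54 without replicate 3 of that group. Genes that overlap the members were looked up in RefSeq as well. *Gad1os*, which overlaps *Gad1*, was listed at 0 in all 6 libraries. Gm14204, a long noncoding RNA whose span shares 3464 bases with that of *Slc32a1*, had values of 4, 3 and 1 in the controls against 7, 6 and 5, the opposite order to *Slc32a1*, with an adjusted p of 0.16 from limma. It too was named after its values were seen.

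Further interneuron genes were read from lists, which describe the setting and carry no test of their own. Of 18 other transcription factors of the lineage, 16 were above 0 in some library and 0 passed the threshold with limma, while 6 had an unadjusted p under 0.05, all lower. In 5 of them, *Maf*, *Prox1*, *Sox6* and *Adarb2* included, the groups did not overlap, each lower in Kcna1-dCas9A. Of all genes tested 13.3% lay lower without overlap, and among the 9751 genes with a mean value of 5 or more 37.5% did not overlap in either direction and 37.7% had an unadjusted p under 0.05. *Maf*, used by medial eminence interneurons, was listed at 118, 122 and 106 against 76, 74 and 84, at a fitted log2 fold change of -0.56 (standard error 0.10, adjusted p = 0.053 from limma).

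*Prox1*, a factor of caudal eminence interneurons and of dentate granule cells, was listed at 146, 160 and 107 against 89, 101 and 75, and *Nr2f2*, also of the caudal eminence, at 210, 199 and 218 against 227, 198 and 235. The first of these did not overlap between groups and the second did. The partner genes of *Dlx1* and *Dlx2* on another chromosome, *Dlx5* and *Dlx6*, were listed at no more than 4 in any library, and their noncoding neighbour *Dlx6os1* at 21, 29 and 23 against 21, 22 and 25, so that its groups overlapped. *Nkx2-1*, the factor that switches on *Lhx6*, was listed at 1 in a single library and at 0 in the rest, and *Lhx8* and *Gsx2* at 0 in all.

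Of 19 further subclass genes, 18 were above 0 and 0 passed with limma, while 1 had an unadjusted p under 0.05, beside 1.16% and 23.2% of all genes tested. *Pvalb*, which encodes parvalbumin and marks the fast-spiking subclass, was listed at 0 in all 6 libraries, and *Lamp5* and *Htr3a* at 1 in a single library each. *Cck*, a peptide shared with glutamatergic neurons, was the most abundant at 208, 217 and 194 against 228, 238 and 222. Its groups did not overlap, with higher Kcna1-dCas9A values and a log2 fold change of 0.15 (adjusted p = 0.32 from limma). *Cnr1*, the cannabinoid receptor of cholecystokinin interneurons, was listed at 80, 66 and 58 against 50, 39 and 53 without overlap, with a log2 fold change of -0.51 (adjusted p = 0.13 from limma), and *Chodl*, a gene of long-range *Sst* neurons, at 42, 53 and 39 against 36, 41 and 37.

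For the removal of GABA, 6 genes were listed and 5 were above 0, of which 0 passed with limma and 1 had an unadjusted p under 0.05, a share no larger than the 23.2% over all genes. That gene was *Abat*, the GABA transaminase that breaks GABA down, named after its values were seen and listed at 15 in each control library and at 7, 8 and 11 with the *Kcna1* guide (log2 fold change -0.75, standard error 0.20, adjusted p = 0.077 from limma). The astrocytic GABA transporter *Slc6a11* was listed at 225, 284 and 240 against 223, 255 and 242. Its groups overlapped, as did those of *Aldh5a1*, the next enzyme of GABA breakdown, at 15, 15 and 22 against 16, 16 and 14.

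Of 15 genes of interneuron migration and inhibitory synapses, 0 passed with limma and 3 had an unadjusted p under 0.05 (1 higher, 2 lower), a share no larger than the 23.2% of all genes tested. The most abundant, *Kcnc1* (56, 64 and 86 against 96, 72 and 67), *Nlgn2* (43, 41 and 45 against 49, 37 and 45) and *Erbb4* (32, 45 and 56 against 45, 36 and 38), overlapped between groups. *Gphn*, the scaffold of inhibitory synapses in all neurons, was named after its values were seen. It was listed at 35, 33 and 30 against 20, 11 and 10, at a fitted log2 fold change of -1.26 (standard error 0.25, adjusted p = 0.056 from limma).

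**Figure D4:**
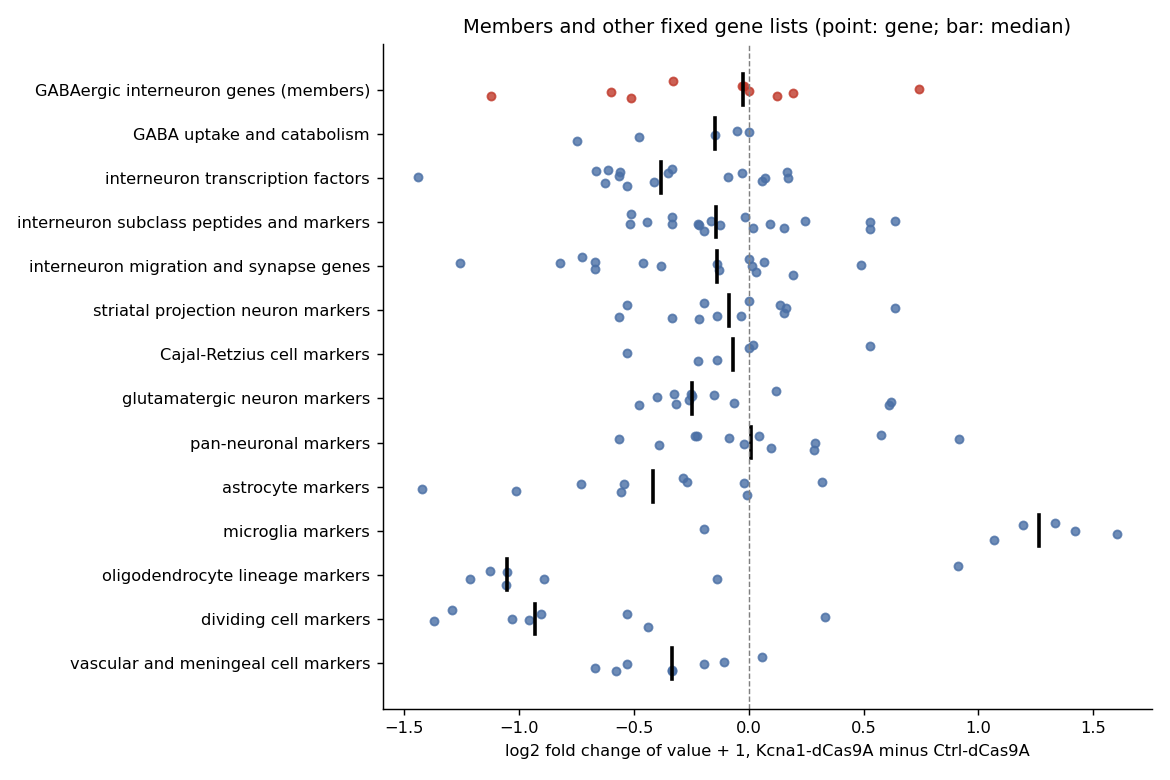
Each point is a gene above 0 in at least 1 library, placed by its log2 fold change of value + 1 (Kcna1-dCas9A minus Ctrl-dCas9A, horizontal axis) in the row of its list, with a black bar at the median of the list. The 10 members spread on both sides of 0 around a median of -0.02, the further interneuron transcription factors have a median of -0.38, and the lists farthest from 0 are microglia (1.26), oligodendrocyte lineage (-1.05) and dividing cell markers (-0.93).

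Markers of other cells were read beside these values, and their part in the results was not tested. Among 12 glutamatergic neuron markers 0 passed the threshold, and 4 had groups that did not overlap, 2 in each direction, beside 22.2% of all genes tested and 37.5% of those with a mean value of 5 or more. In the list as a whole 9 of 12 fold changes were negative, with a median of -0.25, and the values summed to between 2359 and 2434 in the controls and between 2040 and 2133 in Kcna1-dCas9A. *Slc17a7*, a vesicular glutamate transporter named after its values were seen, was listed at 33, 29 and 41 against 47, 54 and 57. This was the opposite direction to most of the list. The other vesicular glutamate transporter of the list, *Slc17a6*, overlapped at 30, 24 and 33 against 26, 30 and 22, and no ratio to it was taken. Relative to *Slc17a7*, *Slc32a1* was 1.27, 1.28 and 0.829 in the controls against 0.574, 0.574 and 0.368. *Gad1* relative to *Slc17a7* was 0.790 ± 0.28 (SD, n = 3) and 0.317 ± 0.0023 (SD, n = 3), and neither ratio overlapped between groups. The ratio turns on the glutamatergic gene chosen, since *Neurod6* (512, 484 and 471 against 388, 361 and 362) and *Bhlhe22* (903, 893 and 747 against 615, 637 and 569), factors of glutamatergic neurons, were lower in Kcna1-dCas9A. *Neurod2*, another of them, overlapped at 558, 560 and 680 against 601, 546 and 565.

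Striatal projection neurons are GABAergic as well and share *Gad1*, *Gad2* and *Slc32a1*. Of their defining genes *Drd1* was listed between 2 and 5, *Drd2* at no more than 1 and *Ppp1r1b* at no more than 4 in all libraries. The abundant genes of that list, *Foxp1*, *Meis2* and *Bcl11b*, are also used by cortical neurons, and the whole list of 12 summed to between 696 and 734 in Ctrl-dCas9A and between 623 and 676 in Kcna1-dCas9A. Only *Bcl11b* of that list did not overlap between groups, at 292, 279 and 224 against 191, 182 and 162, while *Foxp1* (154, 195 and 247 against 233, 204 and 215) and *Meis2* (233, 248 and 238 against 236, 224 and 242) did. Of 12 pan-neuronal markers 0 passed the threshold, and the median log2 fold change was 0.01. Without overlap 2 lay higher and 4 lower, beside 22.2% of all genes tested and 37.5% of those with a mean value of 5 or more. *Tubb3* (1862, 1752 and 2605 against 3855, 3221 and 4591) was higher and *Map2* (1643, 1819 and 1614 against 1442, 1466 and 1427) lower in every Kcna1-dCas9A library, and *Stmn2* overlapped.

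Markers of glia and of dividing cells are given by list, beside the 1.16% of all genes tested that passed the threshold and the 23.2% with an unadjusted p under 0.05. Among genes with a mean value of 5 or more these shares were 2.01% and 37.7%. Astrocyte markers had a median log2 fold change of -0.41, with 3 of 10 past the threshold, all lower (*Aqp4*, *Sox9* and *Aldoc*), while *Gfap* overlapped between groups at 63, 45 and 57 against 46, 48 and 70. At an unadjusted p under 0.05 the count was 6 of 10 astrocyte markers, all lower. The astrocyte list summed to between 961 and 1069 in Ctrl-dCas9A and between 702 and 718 in Kcna1-dCas9A. Oligodendrocyte lineage markers summed to between 66 and 98 and between 40 and 44, with *Olig2* past the threshold (lower) and *Mog* at 0 throughout. Of the 7 above 0 in some library, 5 were lower and 1 higher at an unadjusted p under 0.05. *Mbp*, the myelin gene of that list, lay higher without overlap at 3, 3 and 2 against 7, 4 and 7 (unadjusted p = 0.015, adjusted p = 0.11 from limma). Markers of dividing cells, among which ventral progenitors also use *Dlx2*, summed to between 104 and 108 and between 59 and 65, with 0 of 8 past the threshold and 6 lower at an unadjusted p under 0.05. Microglia markers summed to between 22 and 25 and between 53 and 72, with *C1qa* past the threshold (higher), *C1qc* at no more than 2 in any library, and *P2ry12* and *Tmem119* at 0 throughout. Of the 6 microglia markers above 0 in some library, 4 had an unadjusted p under 0.05, all higher and without overlap. Beside *C1qa* they were *Aif1* (10, 6 and 12 against 18, 17 and 26), *Cx3cr1* (3, 3 and 2 against 11, 6 and 10) and *C1qb* (1, 1 and 0 against 3, 3 and 3). Vascular and meningeal markers summed to at most 13 in any library.

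The 4 genes whose groups did not overlap kept their direction under every setting tried, while *Dlx2*, *Npy* and *Gad1* passed the threshold in some settings and *Slc32a1* in none. *Dlx2* had an adjusted p under 0.05 from limma in 7 of 16 alternatives, *Npy* in 5 of 17, *Gad1* in 3 of 17 and *Slc32a1* in 0 of 17. The log2 fold change ranged from -1.31 to -0.77 for *Dlx2*, from 0.59 to 0.90 for *Npy*, from -0.74 to -0.47 for *Gad1* and from -0.63 to -0.36 for *Slc32a1*. With Ctrl-dCas9A replicate 3 left out, 3 of the 10 genes passed, and with any other library left out 0 did. Over all genes the same step gave 2711 genes past the threshold instead of 226, and leaving out any other library gave 0. Beside the 3 members that passed in that setting, 14.2% of all genes did.

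**Figure D5:**
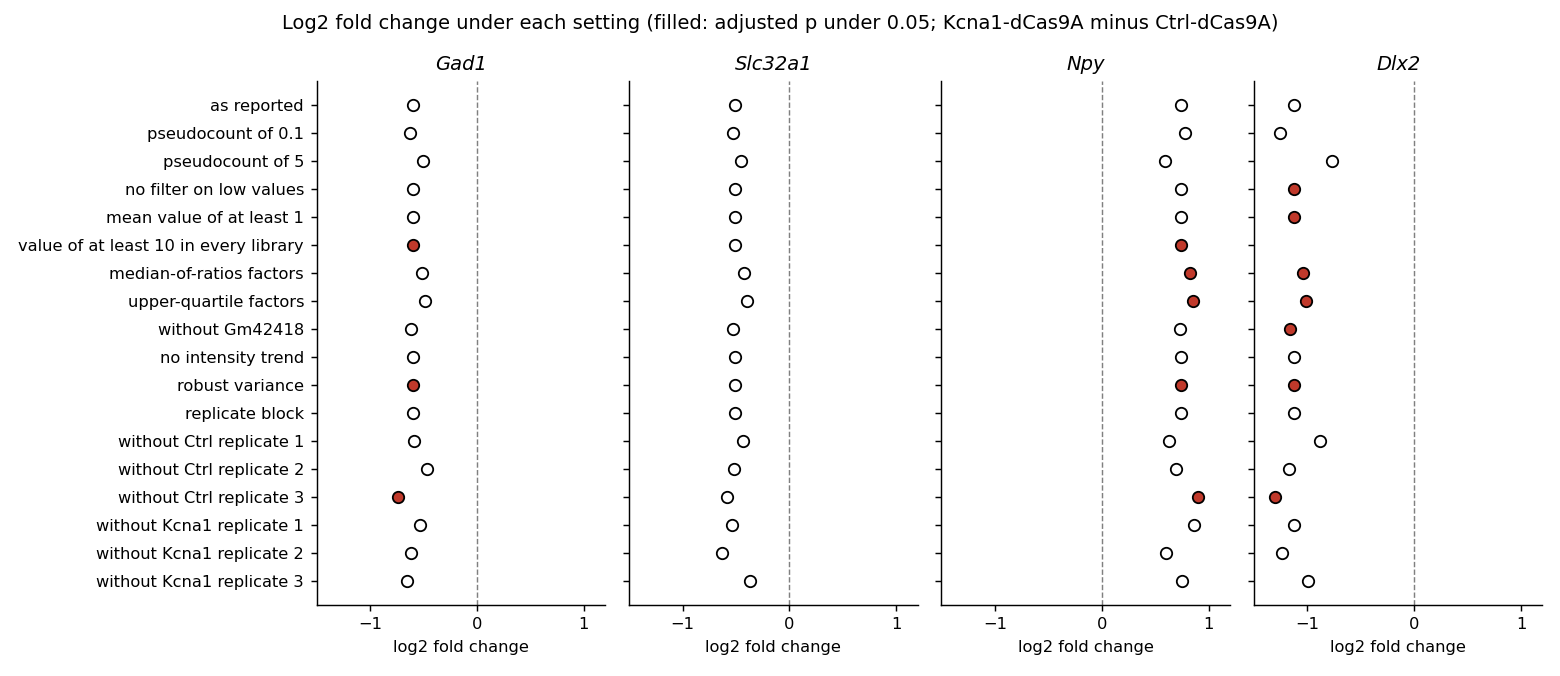
The log2 fold change of *Gad1*, *Slc32a1*, *Npy* and *Dlx2* (horizontal axis, Kcna1-dCas9A minus Ctrl-dCas9A) is plotted under each setting (vertical axis, as reported at the top), with filled points where the adjusted p was under 0.05. No point crosses 0, and filled points occur for *Dlx2* in 7 settings, *Npy* in 5 and *Gad1* in 3.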

How the data were processed

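RNA of 3 Ctrl-dCas9A and 3 Kcna1-dCas9A libraries from neuron cultures was read with a QuantSeq 3′ kit. For each gene the authors deposited a whole-number score that sums to nearly the same total in every library, read as rounded CPM-like values and not as counts, so that depth is unknown and no count model was used. The study's methods name Bowtie2 and NCBI37/mm9, whereas the submitters' processing notes name STAR 2.7, featureCounts, DESeq2 and mm10. Symbols were matched to RefSeq of GRCm38.p6. Groups were compared with limma 3.58.1 in R 4.3.3 (intensity trend, pseudocount 1, two-sided, Benjamini-Hochberg adjustment), checked on simulated data, with group as the only factor. The simulation assumed a depth and planted a change larger than any fitted for the members. It therefore does not show that changes of their size would be found. Alternatives were other pseudocounts, filters, scalings, variance models, the replicate block and each library left out. The members and lists were chosen with earlier results of these data known. Named were all members, *Kcna1*, and of each list the genes past the threshold and the 3 with the highest mean, except that some genes of the lists are not reported here. All other genes, defining markers near 0 and overlapping genes among them, and the pairs used for ratios were chosen after their values were seen. Sequences were read with Python 3.11.15.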

Additional observations from a re-analysis of the deposited data

How the results depend on the processing

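The number of genes past the threshold, 226 as reported, was 627 with a pseudocount of 0.1, 475 with a pseudocount of 5, 2405 with no filter (where limma warns that most variances are 0), 1543 for a mean value of at least 1, 1946 for values of 10 or more in all libraries, 1721 with median-of-ratios factors (963 higher, 758 lower, against 68 and 158 as reported), 2058 with upper-quartile factors (1226 higher, 832 lower), 1768 without Gm42418, 201 without the intensity trend (117 higher, 84 lower) and 2884 with a robust variance. It was 0 with the replicate block and ranged from 0 to 2711 with each library left out, and the cause was not tested.

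Of the 10 interneuron genes 0 passed as reported, whereas 1 passed without a filter, for a mean of at least 1 and without Gm42418 (*Dlx2* each time), 2 for values of at least 10 (*Gad1* and *Npy*, with *Dlx2*, *Lhx6* and *Vip* not tested) and with both rescalings (*Npy* and *Dlx2*), 3 with a robust variance, and from 0 to 3 with each library left out. Of all genes tested 4.76% passed without a filter, 11.3% for a mean of at least 1, 9.07% without Gm42418, 27.6% for values of at least 10 (beside 2 of 7 members), 8.82% and 10.6% with the median-of-ratios and upper-quartile factors and 14.8% with a robust variance. The log2 fold change of *Dlx2* in the settings where it passed was -1.12 without a filter, for a mean of at least 1 and with a robust variance, -1.04 with median-of-ratios factors, -1.01 with upper-quartile factors and -1.16 without Gm42418. That of *Npy* was 0.74 for values of at least 10 and with a robust variance, 0.82 with median-of-ratios and 0.85 with upper-quartile factors. That of *Gad1* was -0.60 for values of at least 10 and with a robust variance. With each library left out the ranges were -1.31 to -0.88 for *Dlx2*, 0.60 to 0.90 for *Npy* and -0.74 to -0.47 for *Gad1*, and the adjusted p passed without Ctrl-dCas9A replicate 3 alone. *Gad2* and *Calb2* changed sign in 5 settings each and *Sst* in 1, none past the threshold. The counts of list genes past the threshold hold for the reported setting alone. With median-of-ratios factors the adjusted p from limma was 0.034 for *Maf*, 0.015 for *Gphn*, 0.028 for *Slc17a7* and 0.012 for *Tubb3*. It was 0.069 for *Prox1* and 0.086 for *Abat*. With the replicate block the adjusted p from limma was 0.11 or more for each of these genes.

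With the replicate block, 0 genes and 0 of the 10 passed, with adjusted p of 0.12 for *Dlx2*, 0.16 for *Npy*, 0.18 for *Gad1* and 0.15 for *Slc32a1* from limma. Libraries with the same number deviated from their group means with correlations across 9751 genes of 0.013, 0.089 and 0.13. For different numbers the correlations ranged from -0.14 to 0.089, and 4 of 6 libraries correlated best with their own number. These values do not settle whether the numbers pair the libraries, and the labels do not state it. The reported fit did not use the numbers. Unknown depth and rounding limit what can be read of genes near 0, such as *Vip*.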
